A study of Homo sapiens with 6 samples.

Results

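ATP-binding cassette (ABC) transporter genes were described in control cultures of SH-SY5Y, an established human neuroblastoma line that is a subclone of SK-N-SH. Members were the genes whose symbol is ABC followed by a subfamily letter from A to G and a number, together with TAP1, TAP2 and CFTR. The rule found 49 genes among the 60709 genes with counts. The subfamilies A, B, C, D, E, F and G held 12, 11, 13, 4, 1, 3 and 5 of them, with TAP1 and TAP2 counted in B and CFTR in C. GENCODE release 29 lists 48 of the 49 as protein-coding and ABCC13 as a pseudogene.

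The study measured messenger RNA after exposure to a fumarate joined to an NRF2-derived peptide. Its labels list 3 control samples and 3 peptide samples of the same line, all lysed after 5 h. Control wells held 2 mL of medium at 80% confluence and received 10 uL of DMSO. Peptide wells received the same DMSO and 200 uL of a solution of 2 mg peptide in 600 uL of water, and no matching water is given for the controls. Count columns carrying the label numbers 4, 5 and 6 are the control replicates 1, 2 and 3. No column carries the numbers 13, 14 or 15 of the peptide samples, so those samples were not analysed here and no effect of the peptide on any transporter is given. The word control rests on the numbers alone, and a table renumbered by its makers would put another group under these headings. The labels do not say whether the 3 wells came from separate cultures.

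ABC proteins use ATP to move substrates across membranes, and a complete transporter pairs nucleotide-binding domains with membrane-spanning domains. Subfamily A moves lipids, and B holds the drug pump P-glycoprotein, the antigen peptide transporter and several mitochondrial members. Subfamily C holds conjugate and drug pumps, the sulfonylurea receptors and the CFTR chloride channel. D serves peroxisomes and lysosomes, G moves sterols and drugs, and E and F lack membrane domains and act in translation. In neuroblastoma, ABCB1, ABCC1, ABCC3 and ABCC4 have been studied for their part in drug response, and several ABCC genes are known NRF2 targets in other cells.

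The libraries held 10683037, 11397407 and 8887854 counts in control replicates 1, 2 and 3. A gene with 0 counts could still have up to 3, which is 0.281, 0.263 and 0.339 CPM. CPM stands for counts per 1000000, taken over library totals after scaling. Of 12 noradrenergic neuroblastoma markers, 11 had at least 10 counts in every library, and TH, the first enzyme of catecholamine synthesis, had 0 counts in each. The noradrenergic markers summed to between 4216 and 4606 CPM. The sum over mesenchymal markers ran from 363 to 408 CPM, of which COL3A1 alone gave 298 to 339 CPM. Of these 7 mesenchymal markers 5 reached 10 counts, COL1A2 had 1, 3 and 2 counts and PRRX1 had none. Epithelial markers summed to between 1.496 and 1.93 CPM, with CDH1, KRT5 and KRT14 at 0. Of the 6 epithelial markers 1, EPCAM, reached 10 counts, with 11, 14 and 13. Hematopoietic markers summed to 1.58 to 2.43 CPM, with CD3E, LYZ and HBB among those at 0. Of the 6 hematopoietic markers 1, CD14, reached 10 counts, with 25, 21 and 14. Endothelial markers summed to at most 0.263 CPM, with CDH5 at 0, and hepatocyte markers to at most 0.565 CPM. Replicate 3 stood apart. Mitochondrially encoded genes took 6.25% of its counts, against 4.11% and 3.83%, and its departure from the mean of the other replicates had a Spearman's rho of -0.73 with transcript GC content across 10290 nuclear genes. The same measure was 0.72 for replicate 1 and 0.25 for replicate 2. These genes share libraries and are not independent replicates.

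Transcripts of most ABC genes were found, and a member is called detected where every library had at least 10 counts. Of the 49 members, 32 reached 10 counts in all 3 libraries, against 22.9% of all genes. Among the 48 protein-coding members the share was 66.7%, near the 62.2% of all protein-coding genes. A further 8 members had some counts but fewer than 10 in at least 1 library, namely ABCA1, ABCA4, ABCA10, ABCA13, ABCC9, ABCC11, ABCG5 and ABCG8. The last 9 had 0 counts in all 3 libraries. These were ABCA6, ABCA8, ABCA9, ABCB5, ABCB11, ABCC12, ABCC13, ABCG2 and CFTR. Among protein-coding members, 16.7% were at 0 throughout, against a background of 19.5%. Counts come from whole cultures, so fewer cells with a transcript and less transcript per cell cannot be told apart.

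The members together took 0.173%, 0.171% and 0.163% of the counts in replicates 1, 2 and 3. Their summed level was 1688 ± 48.0 CPM (SD, n = 3), and 1715 CPM without replicate 3. Subfamily B supplied 27.7% of that sum, C 19.7%, F 17.9%, A 17.9%, D 12.5%, E 3.58% and G 0.772%. Every member of subfamilies D, E and F was detected. Subfamily A had 5 of 12 and G had 2 of 5.

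**Figure D1:**
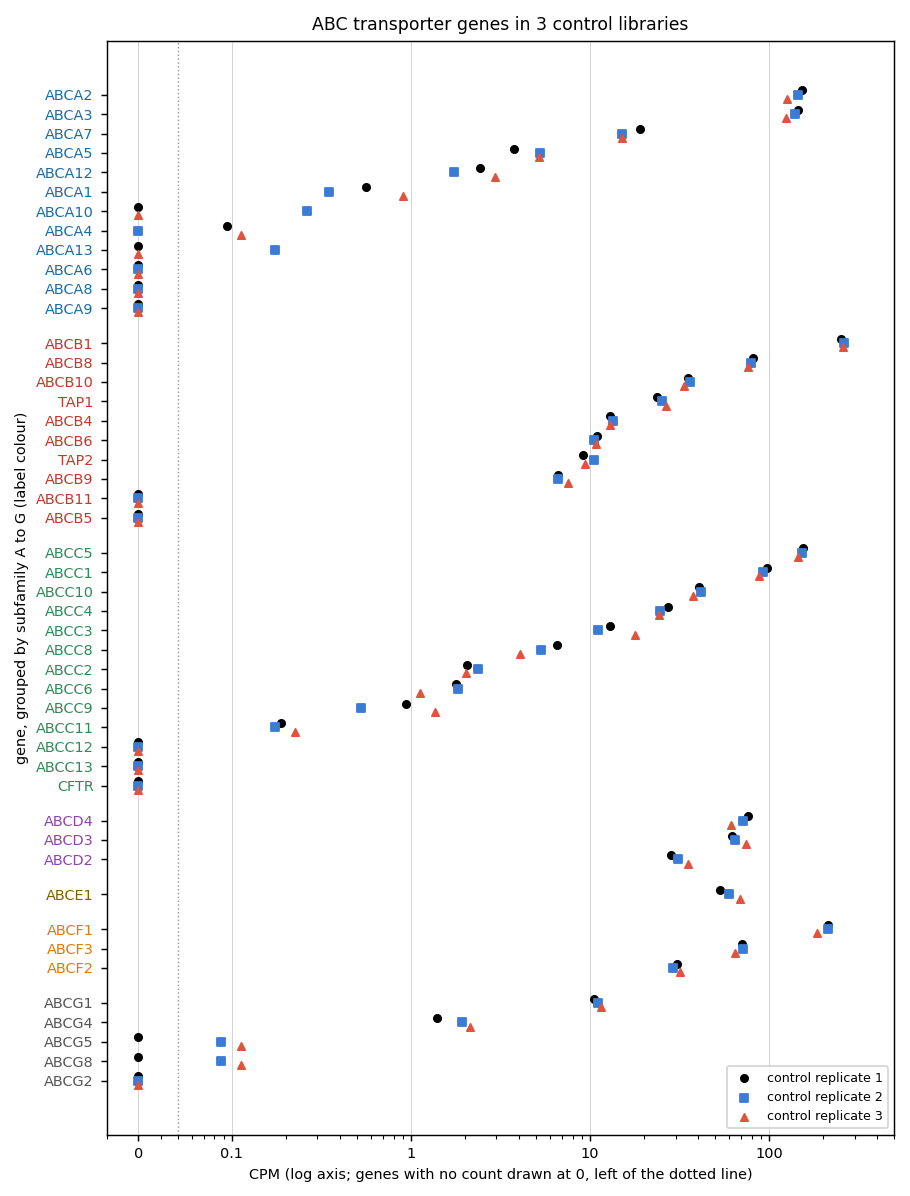
Level of 47 of the 49 ABC genes in CPM (log axis) in the 3 control libraries, grouped by subfamily, with genes without a count drawn at 0 to the left of the dotted line. ABCB1 leads at 253, 261 and 259 CPM, all genes of D, E and F that are drawn lie to the right of 20 CPM, and 9 members have all 3 points at 0.

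The drug efflux genes differed widely in level. ABCB1 encodes P-glycoprotein, a pump with broad specificity for hydrophobic drugs. It lies on GRCh38 chromosome 7 from 87503633 to 87713323 on the minus strand (ENSG00000085563.15). ABCB1 had 2703, 2979 and 2292 counts, or 253, 261 and 259 CPM in replicates 1, 2 and 3. These values lay close together, and no other member had a higher mean than its 257 ± 4.15 CPM (SD, n = 3). Its coefficient of variation was 1.61%, the lowest of the 32 detected members, against a median of 7.83% over them. It is under the 1.94% that counting error alone gives. With the GC trend of each library removed it was 2.58%, place 7 of the 32, and ABCA3 had the lowest value at 0.645%.

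ABCC5 encodes a pump for cyclic nucleotides and organic anions. Its levels were 155, 152 and 145 CPM, and replicate 3 was the lowest. ABCC1 encodes multidrug resistance protein 1, which exports glutathione conjugates and glutathione itself. It measured 97.6, 92.5 and 88.2 CPM, again lowest in replicate 3. ABCC4 exports cyclic nucleotides and prostaglandins, and its 27.1, 24.6 and 24.4 CPM left replicate 1 the highest.

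ABCC3 encodes an exporter of glucuronides and bile salts. It had 13.0, 11.1 and 17.8 CPM from 139, 127 and 158 counts. Replicate 3 was above both others, and the mean of 14.0 ± 3.47 CPM became 12.1 CPM without it. ABCC2, the apical conjugate pump of hepatocytes, had 22, 27 and 18 counts, or 2.06, 2.36 and 2.03 CPM. ABCG2, the breast cancer resistance protein and a marker of some stem-like cells, had 0 counts in each library. The 7 genes together measured 548, 544 and 536 CPM, which is 32.1% of the summed level of all members.

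Levels of different genes were compared per length, as CPM per kilobase of merged exons. On this scale ABCB1 had 44.3 ± 0.714 (SD, n = 3), ABCC5 13.2 ± 0.468 and ABCC1 12.2 ± 0.623 CPM per kilobase. ABCC5 was above ABCC1 in each library, by 1.05, 1.09 and 1.09 times, and by 1.81 times when the longest transcript served as the length. ABCC4 followed with 2.94 ± 0.176, ABCC3 with 1.45 ± 0.361 and ABCC2 with 0.274 ± 0.0235 CPM per kilobase. The level of ABCB1 was 3.37 ± 0.156 times that of ABCC5, but 2.12 times when the longest transcript served as the length. Against the limit of 3 counts per library for ABCG2, the per-length level of ABCB1 was at least 664-fold higher, the lowest bound over the libraries.

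Promoter windows from RefSeq (GRCh38.p14), reaching from 250 bases before a gene's start to 50 after it, were matched to 38 of the 49 members. The 11 members with no entry included ABCA4, ABCA8, ABCB4, ABCB5, ABCC1, ABCC3, ABCC8, ABCC13 and ABCG1. Where a gene had several windows, the one nearest a principal transcript start of GENCODE was used, and which start these cells use was not measured. For 28 of the 38 genes, the start of the window taken lay within 100 bases of a principal start. Windows rich in CpG, a feature of promoters active in many tissues, were those with an observed CpG count of at least 0.6 times the count that base composition gives. The stretches below are shown because they set drug efflux genes of high, low and no measured level beside each other. Each is 100 bases read in the direction of the gene, chosen as the stretch nearest the start that no annotated exon of that gene covers, with every CpG in capitals.

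ABCB1 (257 CPM), chr7:87713324-87713423, minus strand: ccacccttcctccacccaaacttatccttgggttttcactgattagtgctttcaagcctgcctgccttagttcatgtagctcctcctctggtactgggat
ABCC4 (25.4 CPM), chr13:95301476-95301575, minus strand: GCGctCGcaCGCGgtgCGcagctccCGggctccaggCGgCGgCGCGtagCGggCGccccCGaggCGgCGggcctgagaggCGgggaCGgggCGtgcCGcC
ABCC2 (2.15 CPM), chr10:99782540-99782639, plus strand: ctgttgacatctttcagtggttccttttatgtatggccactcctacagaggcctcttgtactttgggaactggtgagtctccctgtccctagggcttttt
ABCG2 (0 counts), chr4:88159025-88159124, minus strand: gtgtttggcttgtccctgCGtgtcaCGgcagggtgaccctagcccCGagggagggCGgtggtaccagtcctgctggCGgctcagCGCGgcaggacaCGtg

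The stretch of ABCC4 holds 19 CpGs and that of ABCG2 8, while those of ABCB1 and ABCC2 hold 0. Over the whole window the observed to expected CpG ratio was 0.992 for ABCC4, 0.901 for ABCG2, 0.102 for ABCB1 and 0.0660 for ABCC2. ABCB1 had a second window on chromosome 7, from 87600835 to 87601134, with a ratio of 0.698. Its start lies 189 bases from a principal start, against 47 for the window shown. The second window held 2 matches to the sequence CCAAT on either strand and the window shown held 0. ABCC5, the second in level of the drug efflux genes, had a ratio of 0.827. Among these genes, CpG-rich and CpG-poor windows were both found at high and at low levels in the windows taken. At high level the CpG-poor case was ABCB1 alone, and it rests on the window taken.

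Across all 38 genes with a window, 19 of the 25 members at 10 or more counts in every library had a CpG-rich window, as had 4 of the 13 other members. The median ratio was 0.827 in the first set and 0.285 in the second. Among windows of protein-coding genes, 62.2% were CpG-rich. The exceptions were ABCA12, ABCB1, ABCB8, ABCB9, ABCC2 and ABCD2, which had counts and a ratio under 0.6, and ABCA1, ABCA10, ABCC9 and ABCG2, which had few or no counts and a ratio above it. No minimum of GC content was set, and the ratio of 0.646 for ABCA10 comes from a window of 25% GC, where few CpGs are expected. The windows of ABCC9 and ABCC10 lie 4752 and 3888 bases from a principal start. ABCB1 and ABCB9 are exceptions only in the window taken, since the other windows of ABCB9 had ratios of 0.960 and 0.744. Over every window of a gene, 21 of the 25 and 5 of the 13 had a CpG-rich one. The share of protein-coding genes by this count was not computed, and the 62.2% counts each window by itself. The hexamer GGGCGG, a GC box that itself holds a CpG, was found on either strand in 19 of 25 and 3 of 13 windows, against 56.3% of protein-coding windows. CCAAT was found in 6 of 25 and 3 of 13, against 34.7%. TATAAA was found in 3 of 25 and 3 of 13, against 9.47%.

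**Figure D2:**
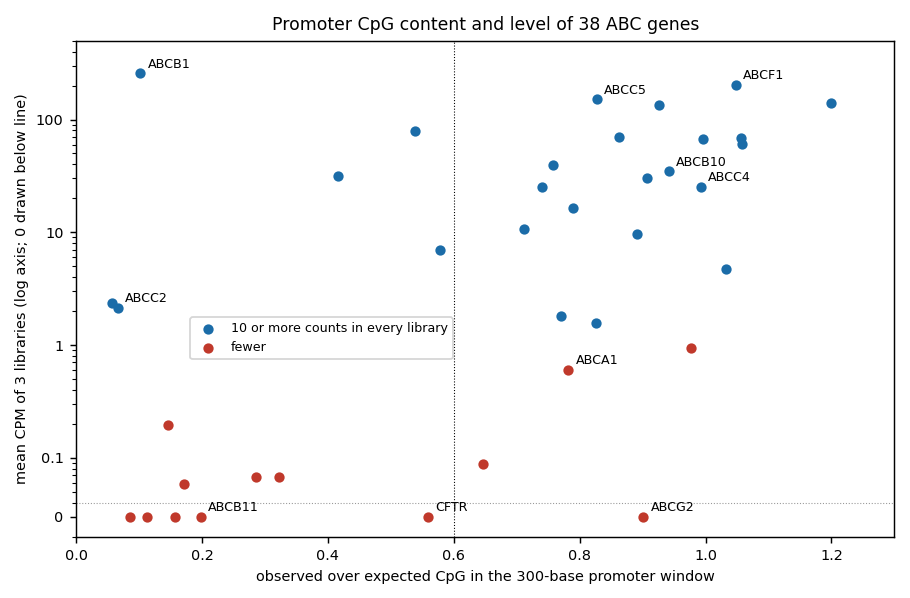
Observed over expected CpG in the promoter window (horizontal axis) and mean CPM of 3 control libraries (log axis, 0 drawn below the lower dotted line) for 38 ABC genes, blue where every library had at least 10 counts. Of the blue genes 19 of 25 lie at or beyond the dotted line at 0.6, ABCB1 lies far to its left at 257 CPM, and ABCG2 lies to its right at 0.

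The core of the antioxidant response element that NRF2 binds, TGACNNNGC, was searched on both strands. It was found in the windows of 6 of the 25 members with counts and 0 of the 13 others, against 13.8% of protein-coding windows. This split rests on the window taken. The windows of the first set also had more GC, with a median of 65.7% against 48.7%, and the part of base composition was not tested. Over every window of a gene, 10 of the 25 and 2 of the 13 held a match, adding ABCA2, ABCB9, ABCC10 and ABCG4 to the first set and ABCC11 and ABCG2 to the second. The share of protein-coding genes with a match in any window was not computed, and the 13.8% counts each window by itself. The same letters hold the AP-1 site where NNN is TCA, which was the case in none of the 6 matches of the windows nearest a principal start. These are shown with 10 bases on each side because this element bears on the design of the study. Capitals mark the match, and each is read in the direction of the element. The match of ABCA5 lies 10 bases after the start of the gene, and the others lie before it.

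ABCA3, chr16:2340907-2340935: gcagggtggcTGACTGCGCacgcgcaagt
ABCA5, chr17:69327105-69327133: tcagtgcgggTGACCCAGCtgggatctgt
ABCB6, chr2:219219092-219219120: cctgggcacgTGACCAAGCcggctctgct
ABCC4, chr13:95301582-95301610: gaccgacgggTGACGCGGCgggaggagac
ABCD4, chr14:74303084-74303112: tggactcggcTGACCCGGCggctacagcg
ABCF1, chr6:30571286-30571314: tggcctgcaaTGACGGAGCggggccggcg

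Of the drug efflux genes, ABCC4 held a match in this window and ABCG2 in another one, whose start lies 378 bases from a principal start. ABCC1 and ABCC3 had no window to search. A match is a run of letters and no measurement of NRF2 binding. The levels of the 6 genes ran from 4.73 CPM for ABCA5 to 204 CPM for ABCF1.

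Among the other members of subfamily B, the mitochondrial transporters ABCB6, ABCB8 and ABCB10 were above 10 CPM. ABCB8, part of a mitochondrial potassium channel and linked to iron export, had 81.3, 79.5 and 76.5 CPM. ABCB10, needed for heme synthesis, had 35.1, 36.1 and 33.4 CPM. ABCB6, a porphyrin transporter, had 10.9, 10.5 and 10.7 CPM, the lowest of these in every library. Its value is uncertain, since 54.7% of its exon bases are shared with another gene on the same strand (ENSG00000284820.1) that had 15, 15 and 12 counts. All 10 genes of a list of iron-sulfur and heme genes of mitochondria had at least 10 counts in every library. Over all protein-coding genes the share was 62.2%, and this list, like the others below, was chosen with earlier results known. FECH, the last enzyme of heme synthesis, was in the list and had 75.0 CPM on average.

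ABCB4 encodes the phospholipid transporter of bile and lies beside ABCB1 on chromosome 7. It had 13.0, 13.5 and 12.9 CPM. Per length, ABCB1 was 25.9, 25.7 and 26.8 times as high in replicates 1, 2 and 3. With the longest transcript as length the ratio was 17.5. How reads shared by these close paralogs were counted is not given in the sources used here. ABCB11, the bile salt export pump, and ABCB5 had 0 counts in each library. The promoter stretches of ABCB10 and ABCB11 are shown as a member with counts and a member without.

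ABCB10, chr1:229558708-229558807, minus strand: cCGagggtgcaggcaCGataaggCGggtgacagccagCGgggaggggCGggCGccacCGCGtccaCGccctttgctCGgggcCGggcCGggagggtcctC
ABCB11, chr2:169031325-169031424, minus strand: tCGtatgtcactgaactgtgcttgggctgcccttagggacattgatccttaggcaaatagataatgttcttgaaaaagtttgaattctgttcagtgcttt

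The first holds 12 CpGs and the second 1.

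TAP1 and TAP2 encode the subunits of the transporter that brings peptides into the endoplasmic reticulum for loading onto MHC class I. TAP1 had 23.7, 25.1 and 26.7 CPM and TAP2 had 9.16, 10.5 and 9.37 CPM. Per length TAP1 was above TAP2 in every library, by 3.43, 3.18 and 3.78 times. With the longest transcript as length the ratio was 4.99. TAP2 shares 32.3% of its exon bases with another gene on its strand that had 0 counts in each library. ABCB9, a lysosomal peptide transporter related to TAP, had 6.64, 6.65 and 7.57 CPM, and 24.5% of its exon bases lie opposite exons of other genes.

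Of 13 genes in a list of peptide loading genes, 12 had at least 10 counts in every library, against 62.2% of protein-coding genes. TAPBPL had 20, 14 and 3. B2M, the light chain of class I, had 389, 395 and 531 CPM. It was highest in replicate 3. The immunoproteasome genes PSMB8, PSMB9 and PSMB10 were at 11.4, 3.28 and 2.68 CPM on average. PSMB8 and PSMB9 lie with TAP1 and TAP2 in an interval of 37753 bases on chromosome 6.

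Among the remaining members of subfamily C, ABCC10, a broad drug and conjugate pump, had the highest level, at 40.4, 41.6 and 37.5 CPM. ABCC6, which is mutated in pseudoxanthoma elasticum and supports ATP release from the liver, had 19, 21 and 10 counts. Pseudogene copies of ABCC6 had 0 counts, and its split of shared reads is uncertain. ABCC11 had 2 counts in each library. ABCC12, ABCC13 and CFTR had 0.

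The sulfonylurea receptors are the regulatory subunits of ATP-sensitive potassium channels, and each has a pore gene of these channels as a neighbour on the chromosome. ABCC8 had 70, 61 and 36 counts and its neighbour KCNJ11 had 10, 10 and 4. ABCC9 had 10, 6 and 12 counts while its neighbour KCNJ8 had 147, 161 and 144. Per length, KCNJ8 had 5.92 ± 0.549, ABCC8 0.422 ± 0.0985, KCNJ11 0.235 ± 0.0822 and ABCC9 0.0808 ± 0.0357 CPM per kilobase (SD, n = 3). Thus on chromosome 11 the receptor gene was above the pore gene beside it in each library, and on chromosome 12 the pore gene was above the receptor gene beside it. These levels rest on 4 to 70 counts per library for 3 of the 4 genes.

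Members of subfamily A move lipids, and their mean levels ran from 141 CPM for ABCA2 to 0 for ABCA6, ABCA8 and ABCA9. ABCA2, which is abundant in brain and handles sphingolipid and cholesterol traffic, had 153, 144 and 126 CPM. ABCA3, the transporter of surfactant lipids in lung, had 144, 140 and 124 CPM. Both were lowest in replicate 3, and per length ABCA2 was 0.704 ± 0.0126 times ABCA3. With the longest transcript as length the ratio was 0.843. ABCA7, a phospholipid transporter whose gene carries risk variants for Alzheimer disease, had 18.98, 15.05 and 15.02 CPM. ABCA12, the lipid transporter of the skin barrier, had 26, 20 and 26 counts.

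ABCA1, which loads cholesterol onto apolipoprotein A-I and is a target of the LXR receptors, had 6, 4 and 8 counts. ABCA4, the retinal transporter, had at most 1 count and ABCA13 at most 2. Of 11 genes in a list of cholesterol efflux and LXR genes, 10 reached 10 counts in every library, against 62.2% of protein-coding genes. NR1H2, which encodes LXR beta, had 55.3, 55.7 and 54.7 CPM and NR1H3, for LXR alpha, 4.30, 4.73 and 3.84 CPM. APOE had 50, 42 and 12 counts, with replicate 3 the lowest, and APOA1 had 4, 0 and 1.

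A cluster on chromosome 17, from 68867292 to 69327244, holds ABCA8, ABCA9, ABCA6, ABCA10 and ABCA5. Of these 5 genes ABCA5, at one edge, had 40, 60 and 46 counts, or 4.73 ± 0.856 CPM. ABCA10 had 0, 3 and 0 counts and the others had 0. ABCA10 shares 318 exon bases with ABCA5.

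Subfamily D was detected throughout. ABCD2, an importer of very long chain fatty acids into peroxisomes, had 28.2, 31.0 and 35.2 CPM. ABCD3, the most abundant protein of the peroxisomal membrane in many tissues, had 61.9, 64.3 and 74.5 CPM. ABCD4, a lysosomal protein needed for cobalamin release, had 76.3, 71.8 and 61.1 CPM. Replicate 3 was the highest for ABCD2 and ABCD3 and the lowest for ABCD4. All 8 genes of a list for peroxisomal import and fatty acid oxidation reached 10 counts in every library, against 62.2% of protein-coding genes. HSD17B4 led them with 122 CPM on average, and PEX19, the receptor that delivers ABCD proteins to the membrane, had 92.6 CPM.

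ABCE1 splits ribosomes after termination so that their subunits can be used again. It had 53.4, 59.8 and 68.3 CPM, highest in replicate 3, and 11.9% of its exon bases lie opposite exons of other genes, whose reads cannot be told apart if strand was not used in counting. ABCF1, which binds initiation factor eIF2, had 213, 214 and 184 CPM and was lowest in replicate 3. ABCF3, which is known for a role in antiviral response, had 70.5, 71.8 and 64.1 CPM. ABCF2 had 30.8, 29.1 and 31.6 CPM, and 45.8% of its exon bases are shared with a readthrough gene that had 0 counts. Per length ABCF1 was 5.53, 4.95 and 3.73 times ABCE1 in replicates 1, 2 and 3. With the longest transcript as length the ratio was 3.79. All 8 listed partners of ABCE1 and ABCF1 in translation reached 10 counts in every library, against 62.2% of protein-coding genes. ETF1, the release factor that acts with ABCE1, had 197 CPM on average.

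The stretch before ABCF1 is shown because it holds 1 of the 6 antioxidant element matches given above, here on the opposite strand, beside CpGs in capitals. It covers chr6:30571276-30571375 on the plus strand, and it holds 13 CpGs.

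ABCF1: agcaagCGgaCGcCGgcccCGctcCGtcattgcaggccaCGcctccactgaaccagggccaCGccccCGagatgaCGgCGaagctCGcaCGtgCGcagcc

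Subfamily G was the lowest. ABCG1, which moves cholesterol to high-density lipoprotein, had 10.6, 11.1 and 11.5 CPM. ABCG4, its relative in neurons and glia, had 15, 22 and 19 counts, or 1.40, 1.93 and 2.15 CPM. ABCG5 and ABCG8 form the sterol transporter of liver and intestine and lie head to head on chromosome 2. Each had 0, 1 and 1 counts.

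Ordered by level per length, the 32 detected members began with ABCF1 at 45.0 ± 3.75 and ABCB1 at 44.3 ± 0.714 CPM per kilobase, whose libraries overlapped. ABCA3 came next with 17.4 ± 1.39, apart from both. The list ended with ABCC6 at 0.209 ± 0.0519. Of 31 pairs of neighbours in this order, 22 overlapped in their values over the libraries and 9 did not. In 5 of the 22 the order was nevertheless the same in each library. Gaps without overlap followed, among others, ABCB1, ABCA3, ABCC1, ABCC10, ABCC4, ABCB4 and ABCC3. The median over the 32 members was 5.14 CPM per kilobase, against 7.10 over 12393 protein-coding genes with the same minimum of counts, and 14 of the 32 were above that value. With the longest transcript as length ABCF1 and ABCB1 kept places 1 and 2, and ABCD4 went from place 13 to 5.

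**Figure D3:**
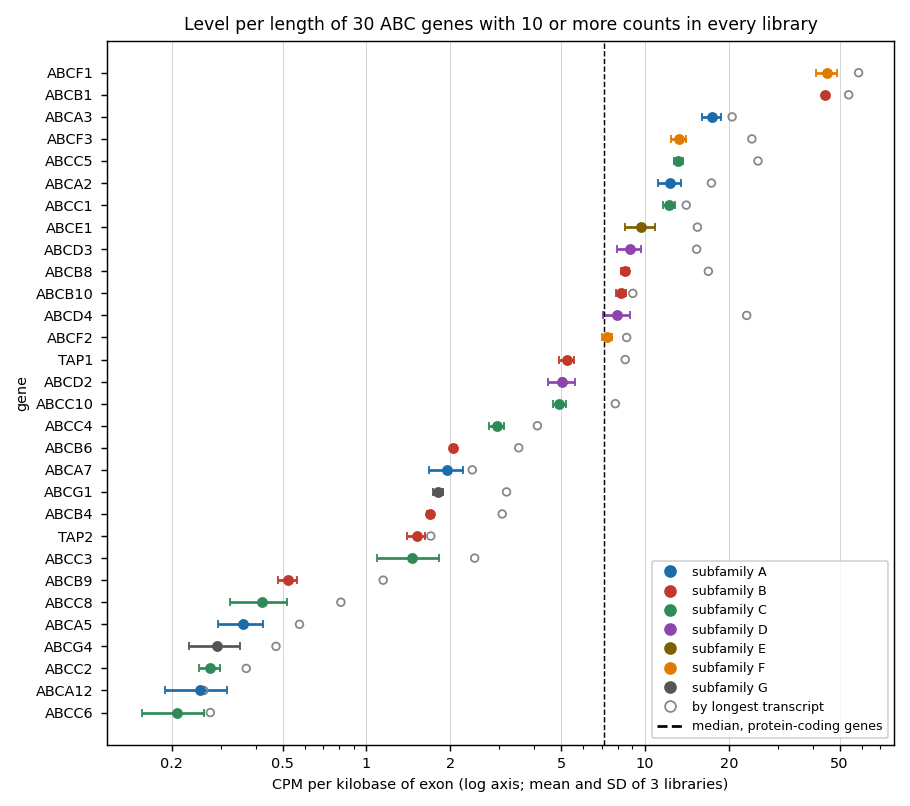
CPM per kilobase of merged exons (log axis; filled points with bars give mean and SD of 3 control libraries, open circles use the longest transcript as length) for 30 of the 32 detected ABC genes, coloured by subfamily. ABCF1 and ABCB1 stand above 40 CPM per kilobase, and 17 of the filled points lie left of the dashed median of protein-coding genes.

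Replicate 3 stood apart over all genes, and the levels of the members were therefore set against each other by library. A member was counted as apart when its CPM in 1 library was over 25% above, or over 20% below, the mean of the other libraries, which is the same ratio either way. With 1 library against 2 there is no test. In replicate 3, 5 of 32 members were apart, which is 15.6%, while 18.5% of 13920 genes were. ABCC3, ABCA12 and ABCG4 were higher, with log2 differences of 0.57, 0.49 and 0.37, and ABCC6 and ABCC8 were lower, at -0.68 and -0.55. ABCC6, ABCA12 and ABCG4 rest on 10 to 26 counts per library, and ABCC8 on 36 to 70.

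The 5 members apart in replicate 1 included ABCA7 and ABCC8, higher, and ABCA5 and ABCG4, lower, against 13.6% of all genes. The 3 in replicate 2 were ABCC6, higher, and ABCA12 and ABCC3, lower, against 9.4%. At a stricter 1.5-fold, 1 member, ABCC6, was apart in replicate 3.

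Across the 32 members, GC content and the log2 difference of replicate 3 had a Spearman's rho of -0.44, which became 0.36 with the GC trend over all genes removed. For replicate 1 it was 0.51, as far from 0 in the other direction, and became -0.11. For replicate 2 it was -0.13 and became -0.30. These values are a description over genes that share libraries. The members with the lowest GC content, ABCA5, ABCD2, ABCD3 and ABCE1, had log2 differences of 0.21, 0.25, 0.24 and 0.27 in replicate 3. ABCC4, ABCB4, ABCC2 and ABCB10, at 43.2 to 45.3% GC, had differences of -0.08, -0.04, -0.12 and -0.09. ABCA2 and ABCA7, which are GC-rich, had differences of -0.23 and -0.18, and ABCB9, also GC-rich, had 0.19. After the GC trend over all genes was removed, 6 of 32 members were apart in replicate 3, against 11.8% of all genes. All 5 named before were among them, and ABCB9 was the sixth. The part of RNA quality in this was not tested.

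**Figure D4:**
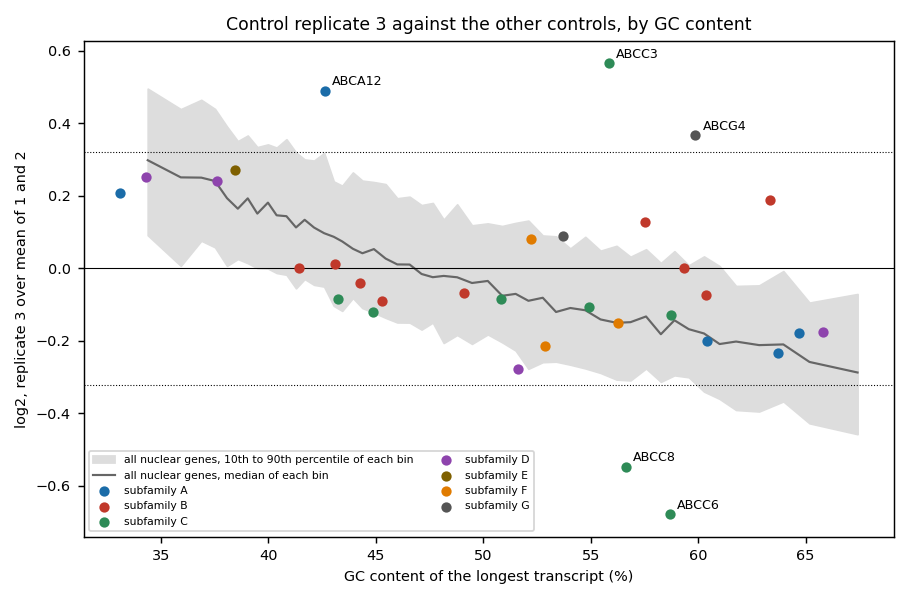
GC content of the longest transcript (horizontal axis, %) and log2 ratio of control replicate 3 to the mean of replicates 1 and 2 for 32 ABC genes, coloured by subfamily, over the median and the 10th to 90th percentile of nuclear genes in bins of GC. Dotted lines mark 25% above and 20% below, and ABCA12, ABCC3 and ABCG4 lie above and ABCC6 and ABCC8 below them.

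Genes that feed or regulate the pumps were read from lists. Of 11 glutathione and conjugation genes, 9 had at least 10 counts in every library, against 62.2% of protein-coding genes. GSTP1, a glutathione transferase, had 431, 432 and 388 CPM, and GCLC and GCLM, which form the enzyme for the first step of glutathione synthesis, had means of 68.7 and 63.0 CPM. Of 8 regulators of transporter genes, 4 reached that count, against the same 62.2%. NFE2L2, which encodes NRF2, had 86.4, 92.5 and 118 CPM, highest in replicate 3. YBX1, which binds the inverted CCAAT box of ABCB1, had 566, 545 and 559 CPM. The receptor genes AHR and NR1H4 had 0 counts in each library, NR1I2, for the pregnane X receptor, had 2, 3 and 3, and NR1I3 had 7, 10 and 4. These lists describe levels in control cultures, and no regulation of any transporter was tested.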

How the data were processed

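RNA from 3 control samples was analysed. The deposited table holds raw whole-number counts per gene, made by the authors. Per the submitters' processing notes, fastp 0.21.1, STAR 2.7.7a, featureCounts and GRCh38 were used. The annotation release, strand setting and treatment of shared reads are not given in the sources used here. The table has 6 count columns, and the 3 whose numbers match none of the labelled samples were set aside. Of 60710 gene entries, 1 had no values. Symbols matched 60480 of 60709 genes.

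CPM values used edgeR 4.0.16 (R 4.3.3) and its TMM scaling, over totals of 8887854 to 11397407 counts. Detection meant at least 10 counts in every library. Lengths, GC content and coordinates came from GENCODE release 29 (GRCh38), which may differ from the authors' annotation. The GC trend was the median log2 deviation of each library in 50 bins of 10290 nuclear genes averaging 100 counts or more. Its removal was tested on simulated data with counting error alone and a linear trend in 1 library. In the real data every library had a trend, so that test does not show how well the removal works here. No p-value was computed, since 1 group had columns. All members entered the counts and sums, some genes are not reported here by name, and ABCB1, ABCC1 to ABCC5 and ABCG2 were named whatever their values. Otherwise, members at 10 or more counts and those apart in 1 library were named. Members, lists and rules were chosen with earlier results of these data known. Limits of 3 counts cover counting error only. Python 3.11.15, numpy 2.4.6, pandas 2.3.3, scipy 1.17.1 and matplotlib 3.10.9 were used.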

Additional observations from a re-analysis of the deposited data

How the results depend on the processing

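No paired analysis was possible because the labels tie table columns to 1 group, the controls. The planned test of peptide against control and its alternatives (RLE, no filter, DESeq2, the replicate block, leaving out replicates) were not run for the same reason. The count of 32 detected members was 35, 33 and 29 at minimums of 1, 5 and 20 counts, and 32 to 33 with 1 replicate left out. The summed level of 1688 CPM was 1772 CPM with mitochondrial genes left out of the totals, which follows from smaller totals, and 1670 to 1715 CPM with 1 replicate left out. The mean over libraries of the median per length, 5.25 CPM per kilobase, was 7.54 by longest transcript, since that length is shorter, 4.71 at a minimum of 1 count and 6.43 at 20, where fewer low members enter, and 5.07 to 5.39 with 1 replicate left out. The 5 members apart in replicate 3 were 7, 6 and 3 at minimums of 1, 5 and 20 counts. They were 12 at a limit of 15% above (40% of all genes) and 1 at 1.5-fold (3.71%). Against a single library they were 4 without replicate 1 and 9 without replicate 2. For other minimums and for a single library the share over all genes was not computed, so those counts say nothing particular to ABC genes. RLE and library size alone left the summed level within 1 SD and the count at 5. Of 36 values of the 6 drug efflux genes with counts under other settings, 2 moved by over 1 SD, both without mitochondrial genes. Leaving out 1 of 3 replicates cannot move a mean by over 1 SD, so those values are no evidence of stability. Reading every promoter window of a gene, removing the GC trend from the spread of single genes, the count minimums for the members apart, and all settings for the level per length other than the length itself, were chosen after seeing the data. Depth limits ABCA12, ABCC2, ABCC6 and ABCG4, with 10 to 27 counts per library.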
